A study of Danio rerio with 3 samples.

Results

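The respiratory chain of the inner mitochondrial membrane is built mostly from proteins encoded in the nucleus. The genes described here are the 93 of 29077 genes in the count tables whose symbol begins with *nduf*, *uqcr* or *atp5*, or with *cox4*, *cox5*, *cox6*, *cox7* or *cox8*. They fall into 36 subunit genes of complex I, 7 complex I assembly factors, 4 genes of the *ndufa4* family, 8 subunit genes of complex III, 18 of complex IV, 17 of ATP synthase (complex V) and 3 other ATP synthase genes, the inhibitory factors *atp5if1a* and *atp5if1b* and the coupling factor *atp5s*. They were measured in 3 single-cell libraries of the telencephalon of 12-week-old zebrafish carrying Tg(sox2:gfp), a transgene in which the *sox2* promoter drives GFP in neural stem and progenitor cells. All fish had been bathed in LY-411575, an inhibitor of gamma-secretase and therefore of Notch signalling for 48 h by one description of the treatment and 24 h by another. Each library pooled 20 fish of one sorting day, enriched for the pallium, and mixed GFP-positive cells with an equal quantity of GFP-negative cells. Samples without the inhibitor were not analysed here, so all comparisons lie between cell classes within treated fish. The p-values rest on how far the difference between classes varied among these 3 libraries, with the level of each library set aside.

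Complex I (NADH dehydrogenase) and complex III (cytochrome bc1) pass electrons to complex IV (cytochrome c oxidase) and pump protons, and ATP synthase lets the protons flow back to make ATP. A core of complexes I, III, IV and V is encoded by mitochondrial DNA, so each of these complexes needs transcripts from both genomes. Several complex IV subunits exist as alternative isoforms which, in mammals, differ between tissues and oxygen tensions. Neurons draw heavily on oxidative phosphorylation, whereas astrocytes and neural progenitors are known for strong glycolysis.

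The 3 libraries held 8143, 6205 and 5349 barcodes with medians of 1541, 1676 and 1652 unique molecular identifiers (UMIs, each standing for 1 captured transcript) per barcode, and 17840 of 19697 barcodes were kept after filtering. Between 53 and 71 barcode sequences were shared by any 2 libraries. Cells were thinned to 1000 UMIs and placed in a class where the UMIs of a marker list passed a threshold, which was set after the UMIs of the lists had been seen. This gave 1855 radial glia, 1548 cycling cells, 832 neuroblasts, 4372 neurons, 1248 cells of the oligodendrocyte lineage and 189 macrophages, and left 27.0 to 27.9% of the cells with 1000 UMIs in no class. Each class takes the name of the list that set it, so its own markers are no finding. Erythrocyte (hemoglobin) transcripts, which should be absent from radial glia, were at 1.40 UMIs per 1000 in radial glia of replicate 2 against 0.0314 and 0.238 in replicates 1 and 3. The neuron list stood at 0.879 to 1.30 UMIs per 1000 in radial glia and at 9.87 to 11.7 in neurons.

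Of all UMIs at equal depth, the 93 genes contributed 1.96% ± 0.146 in radial glia (mean ± SD, n = 3 libraries, as for all such values). Among the 6 classes the share was highest in neurons and lowest in neuroblasts, macrophages and the oligodendrocyte lineage, and the few radial glia with a *pnp6* UMI exceeded neurons in each library. In radial glia it was 1.79, 2.01 and 2.07% in replicates 1, 2 and 3, and in neurons 2.01, 2.16 and 2.31%. Neuroblasts gave 1.45, 1.44 and 1.51% and cycling cells 1.74, 1.72 and 1.72%. Macrophages gave 1.31, 1.53 and 1.40% and the oligodendrocyte lineage 1.24, 1.43 and 1.62%. Within each library neurons exceeded radial glia, and radial glia exceeded the other 4 classes, although the ranges of radial glia and neurons overlapped across libraries. With 3 pairs of values no exact two-sided test can give a p below 0.25, so the shares are given as values, and the tests below are per gene.

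**Figure D1:**
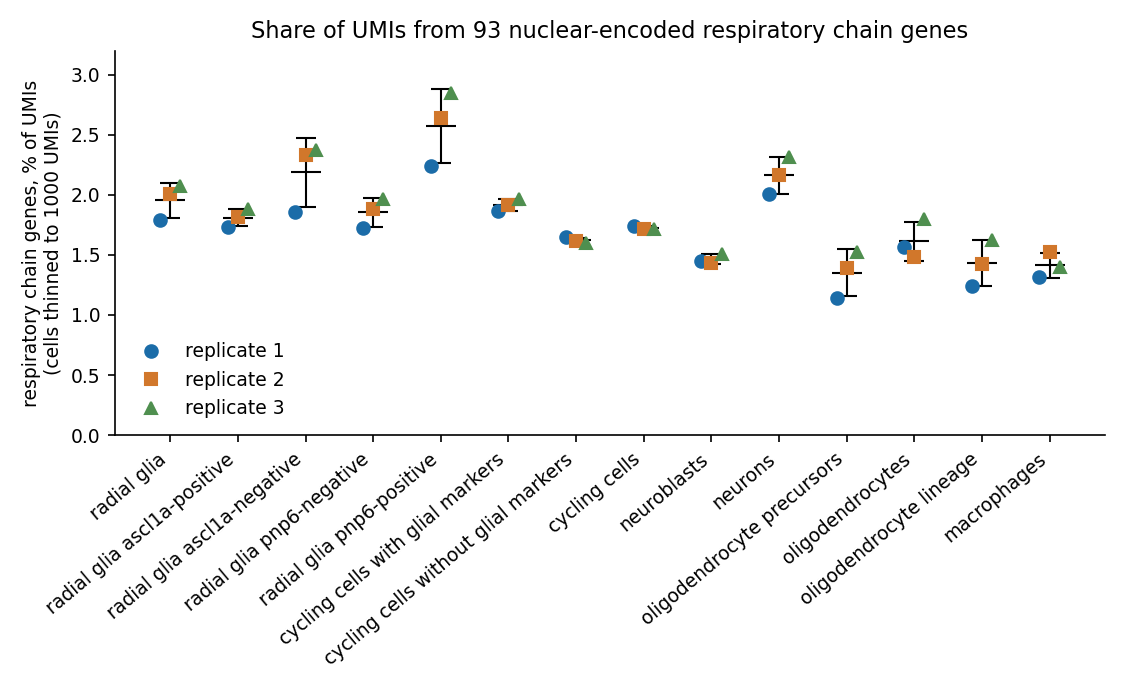
Percent of UMIs from the 93 nuclear-encoded respiratory chain genes (vertical axis) in each class of cells (horizontal axis), with 1 point per replicate and a bar at the mean, cells thinned to 1000 UMIs. Radial glia with a pnp6 UMI lie highest, at 2.24 to 2.85%, and neuroblasts stay between 1.44 and 1.51%.

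All 93 genes gave at least 1 UMI in the 6 classes, and 83 had enough UMIs to be tested in each of 8 comparisons. *cox4i1l*, *cox6a2*, *ndufa4l2a*, *ndufa4l2b*, *ndufa9b*, *ndufaf7* and *ndufs1* passed the filter on low counts in none, with between 1 UMI (*ndufs1*, a core complex I subunit) and 109 UMIs (*ndufaf7*, an assembly factor) in the 6 classes together. *cox5b2*, *cox7a1* and *ndufaf4* passed in some. Levels are given as CPM, the UMIs of a gene per 1000000 UMIs summed over a class and library. A 3' assay captures genes unequally, so levels are compared between classes and not between genes. Of 77 genes that reached 50 CPM in at least 1 class, 56 were highest in neurons, 15 in radial glia and 6 in another class, and 35 were lowest in macrophages, 20 in neuroblasts and 16 in the oligodendrocyte lineage. These counts were not compared with those of all genes. Without further scaling between classes, the median log2 fold change of all tested genes was itself 0.19 in neurons and -0.40 in macrophages, both against radial glia. In the scaled test below, 23.3% of the tested respiratory chain genes and 33.3% of all genes rose in neurons against radial glia.

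Radial glia with at least 1 *pnp6* UMI among 1000 (257 of 1855 cells) had more transcripts of most tested respiratory chain genes than radial glia without one. *pnp6* encodes a purine nucleoside phosphorylase. The summed share was 2.24, 2.64 and 2.85% with and 1.73, 1.88 and 1.96% without *pnp6*, a log2 ratio of 0.47 ± 0.08 that was positive in 3 of 3 replicates and left no overlap between the groups. Of 84 genes tested, 60 (71.4%) rose and none fell at an adjusted p below 0.05, against 11.1% of all 6696 genes that rose and 8.29% that fell. The median log2 fold change was 0.48 for these genes and -0.02 for all genes. By complex, 28 of 34 complex I subunits, 7 of 8 complex III, 9 of 15 complex IV and 13 of 17 ATP synthase subunits rose. The edgeR test gave 65 genes at an unadjusted p below 0.05 in either direction, a count that was not compared with that of all genes. DESeq2 called 41 higher and 0 lower. Over all genes DESeq2 called 388 higher and 232 lower of 3191.

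*ndufa12*, an accessory subunit of complex I, was at 263, 257 and 361 CPM in *pnp6*-positive and at 165, 149 and 176 in *pnp6*-negative radial glia. The groups did not overlap, and the log2 fold change was 0.88 (SE 0.13, adjusted p = 3.95e-08). *ndufa9a*, an accessory subunit of the same complex, stood at 177, 167 and 148 against 78.8, 100.2 and 87.0 (log2 fold change 0.92, SE 0.17, adjusted p = 7.26e-06). *uqcrc2b*, a core protein of complex III, had 99.1, 164 and 106 against 56.0, 71.7 and 71.5 CPM (log2 fold change 0.94, SE 0.20, adjusted p = 8.80e-05), a call that was lost without replicate 2 (adjusted p = 0.085). *ndufaf6*, an assembly factor of complex I, showed the largest difference of these 4, with 64.7, 56.8 and 102 against 30.7, 32.2 and 29.3 (log2 fold change 1.28, SE 0.26, adjusted p = 6.73e-05). Among the genes that did not pass were the neuron-enriched *cox8b* (-0.36) and *ndufa4* (-0.21) and the inhibitory factor *atp5if1a* (0.08), while its paralog *atp5if1b* rose by 0.47.

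*pnp6*-positive radial glia also carried more of the radial glia marker list, at 61.6, 57.7 and 60.6 UMIs per 1000 against 34.0, 31.1 and 33.0, and less cytosolic ribosomal protein RNA, at 7.30, 6.59 and 7.82% against 12.9, 10.99 and 13.3%. They held more UMIs per cell before thinning, with medians of 2345, 3090 and 2935 against 1806, 2001 and 2147. The part of these differences in the result was not tested, and the share of the 93 genes among UMIs of genes other than mitochondrially encoded and ribosomal protein genes gave a log2 ratio of 0.38. The 60 calls became 11 without the pairing of sums from the same library and 23 with stricter markers that asked for 2 UMIs of *pnp6*. They became 31 on thinned UMIs, 36 without replicate 2 and 38 without the filter on low counts. All of these were higher. Over all genes, 746 of 6696 rose in the edgeR test, 232 of 6696 without the pairing and 314 of 6899 with stricter markers. It was 341 of 3690 on thinned UMIs, 437 of 7218 without replicate 2 and 459 of 19056 without the filter.

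Radial glia with an *ascl1a* UMI (1099 cells) had less respiratory chain RNA than those without (756 cells). *ascl1a* encodes a proneural transcription factor of activated progenitors. The summed share was 1.74, 1.81 and 1.89% with and 1.86, 2.34 and 2.37% without *ascl1a*, a log2 ratio of -0.27 ± 0.15 that was negative in 3 of 3 replicates and smallest in replicate 1 (-0.10). Of 84 genes tested, 21 (25%) fell and none rose, against 8.86% of all 7056 genes that fell and 7.38% that rose, and the median log2 fold change was -0.26 against 0.02 for all genes. The edgeR test gave 43 genes at an unadjusted p below 0.05 in either direction, again not compared with the count of all genes. The count of calls was fragile. DESeq2 called 5 lower and 0 higher, and 6 were called without replicate 2. There were 11 on thinned UMIs, 13 without the filter on low counts, and none without the pairing of sums from the same library. Over all genes, 625 of 7056 fell in the edgeR test, 215 of 3226 with DESeq2 and 427 of 7225 without replicate 2. It was 315 of 4298 on thinned UMIs, 578 of 19056 without the filter and 71 of 7056 without the pairing.

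Among genes at 50 CPM or more the largest fall was in *atp5mc1*, which encodes the c subunit of the ATP synthase rotor ring, at 222, 241 and 289 CPM in *ascl1a*-positive and 310, 419 and 444 in *ascl1a*-negative radial glia (log2 fold change -0.64, SE 0.11, adjusted p = 6.33e-06). *cox4i2*, an isoform of complex IV subunit 4, was at 344, 442 and 412 against 522, 680 and 625 (log2 fold change -0.61, SE 0.09, adjusted p = 1.27e-06). Both were lower within each library and without overlap across libraries. The complex I subunits *ndufa7* (-0.56, adjusted p = 0.00287) and *ndufs6* (-0.55, adjusted p = 0.00286) also fell, with the call of *ndufa7* lost without replicate 2 and that of *ndufs6* lost without replicate 1. *ascl1a*-positive radial glia held fewer radial glia marker UMIs, at 28.9 to 30.9 per 1000 against 45.4 to 46.7, and more ribosomal protein RNA, at 11.6 to 14.4% against 8.0 to 10.1%. They also held fewer UMIs per cell before thinning, with medians of 1784, 1984 and 2042 against 1987, 2564 and 2498. The part of these differences in the result was not tested.

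When radial glia were divided by both genes, the 155 cells with *pnp6* and without *ascl1a* had the highest mean share of the 93 genes, at 2.22, 2.96 and 3.28%. The 102 cells with both genes were at 2.28, 2.08 and 2.38%, and so were higher in replicate 1. The 997 cells with *ascl1a* and without *pnp6* had the lowest share in each replicate, at 1.69, 1.78 and 1.83%. The *pnp6* difference was present on both sides of this division, with a log2 ratio of 0.47 ± 0.13 among *ascl1a*-negative and 0.35 ± 0.11 among *ascl1a*-positive cells. Among *pnp6*-negative cells the *ascl1a* difference was -0.19 ± 0.10 and negative in 3 of 3 replicates. Among *pnp6*-positive cells the share was higher with *ascl1a* in replicate 1 and lower with it in replicates 2 and 3. The comparisons by *pnp6* and by *ascl1a* use the same radial glia and are not independent of each other.

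**Figure D2:**
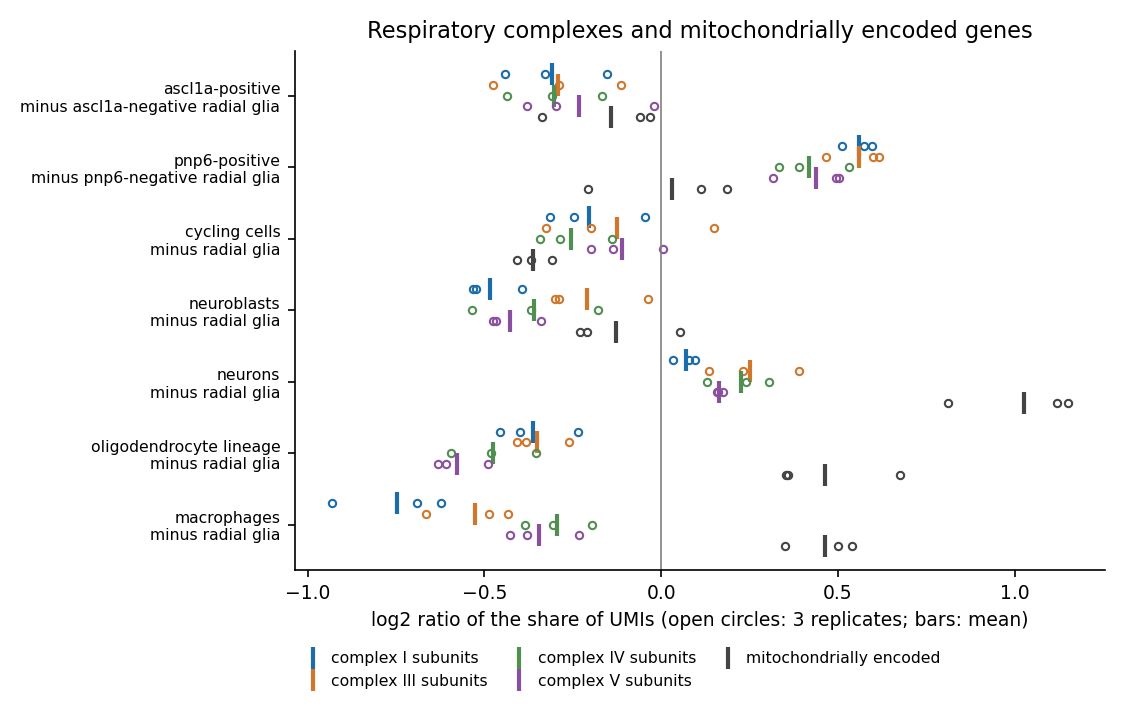
Log2 ratio of the share of UMIs (horizontal axis) in 7 comparisons (vertical axis) for the subunits of complexes I, III, IV and V and for mitochondrially encoded genes. Open circles are the 3 replicates and bars their mean, and the mitochondrially encoded genes of neurons, the oligodendrocyte lineage and macrophages lie to the right of the nuclear-encoded complexes.

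Cycling cells, set by genes of DNA replication or mitosis, had slightly less respiratory chain RNA than radial glia, with a log2 ratio of the share of -0.18 ± 0.12 that was negative in 3 of 3 replicates. Of 85 genes tested, 32 (37.6%) fell and 3 rose, against 25.4% of all 9544 genes that fell and 28% that rose, so the share that fell was above that of all genes and the share that rose was below it. The count of calls was 18 without the pairing of sums from the same library and 56 without replicate 1. Over all genes, 1892 rose and 1679 fell of 9544 without the pairing. Without replicate 1, 2383 rose and 2401 fell of 9955. The 447 cycling cells that also reached the radial glia threshold had shares of 1.87, 1.91 and 1.97%, which differed from radial glia by -0.03 ± 0.08 on the log2 scale with 1 of 3 replicates higher. The 484 cycling cells with few glial UMIs were at 1.65, 1.61 and 1.60%, below the glial cycling cells in 3 of 3 replicates. The mean log2 ratio to radial glia was -0.04 when mitochondrially encoded and ribosomal protein UMIs were left out of the total, and replicate 1 then reversed. With that total the shares were 2.28, 2.13 and 2.19% in cycling cells against 2.08, 2.28 and 2.41% in radial glia. Ribosomal protein RNA made up 17.9 to 22.1% of UMIs in cycling cells against 10.3 to 12.6% in radial glia.

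Among genes at 50 CPM or more *cox4i2* fell most, at 222, 249 and 286 CPM in cycling cells and 430, 545 and 502 in radial glia (log2 fold change -0.97, SE 0.09, adjusted p = 4.91e-12). *ndufb9*, an accessory subunit of complex I (-0.67, adjusted p = 7.85e-09), and *ndufv1*, its core subunit that oxidises NADH (-0.69, adjusted p = 9.40e-05), also fell, both without overlap. The pair of ATP synthase inhibitory factors, which in mammals block the reverse, ATP-consuming reaction of the enzyme, moved in opposite directions. *atp5if1b* was at 167, 154 and 128 CPM in cycling cells and 279.8, 287.6 and 283 in radial glia (log2 fold change -0.94, SE 0.10, adjusted p = 2.57e-10). *atp5if1a* was at 368, 322 and 319 in cycling cells and 205, 215 and 238 in radial glia (log2 fold change 0.61, SE 0.09, adjusted p = 7.92e-07). The other 2 genes that rose were *ndufaf4*, an assembly factor at 17.0 to 27.6 CPM in cycling cells and 6.49 to 13.8 in radial glia (adjusted p = 0.000779), and *cox6b1* (0.67), which reached 16.7 to 23.5% of its level in neurons while the neuron marker list stood at 8.996 to 10.1% in cycling cells and at 8.90 to 11.05% in radial glia.

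Neuroblasts, set by genes such as *neurod4* and *insm1a*, had the broadest fall. The log2 ratio of the share to radial glia was -0.42 ± 0.09, with 3 of 3 replicates lower. It was -0.32 without mitochondrially encoded and ribosomal protein UMIs in the total. Ribosomal protein RNA made up 17.2% of UMIs in neuroblasts and 11.7% in radial glia on average. Of 85 genes tested, 65 (76.5%) fell and 3 rose, against 29.4% of all 8445 genes that fell and 29.2% that rose, with median log2 fold changes of -0.52 for these genes and 0.05 for all. By complex, 30 of 34 complex I subunits, 5 of 8 complex III, 11 of 15 complex IV and 14 of 17 ATP synthase subunits fell. Neuroblasts were also below *ascl1a*-positive radial glia, by -0.31 ± 0.04 on the log2 scale of the share.

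*atp5if1b* stood at 130, 100.2 and 117 CPM in neuroblasts, less than any replicate of radial glia, and fell by 1.38 (SE 0.12, adjusted p = 4.59e-19). *ndufa5*, an accessory subunit of complex I, was at 162, 134 and 133 against 314, 320 and 289.7 (log2 fold change -1.20, SE 0.12, adjusted p = 6.72e-17). *ndufb9* was at 288, 298 and 285 against 512, 664 and 695 (log2 fold change -1.18, SE 0.09, adjusted p = 9.18e-23). *atp5meb*, the e subunit that helps ATP synthase form dimers, was at 187, 172 and 181 against 358, 368 and 389 (log2 fold change -1.13, SE 0.11, adjusted p = 1.89e-17). All 4 fell without overlap between the classes. The complex I assembly factor *ndufaf2* moved the other way, at 62.7, 69.1 and 84.7 against 46.0, 51.9 and 58.1, but its call (log2 fold change 0.39, SE 0.17, adjusted p = 0.0466) was lost without any 1 of the replicates. *ndufaf4* (0.90) and *cox6b1* (0.63) were the other genes that rose, the latter with a call that leaving out 1 replicate removed. The neuron marker list moved with *cox6b1*: it stood at 15.6 to 19.2% of its neuron level in neuroblasts against 8.90 to 11.05% in radial glia, and *cox6b1* at 18.5 to 24.6% in neuroblasts, and its part in the result was not tested.

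Neurons had more respiratory chain RNA than neuroblasts. The log2 ratio of the share was 0.56 ± 0.08 and positive in 3 of 3 replicates. It was 0.39 without mitochondrially encoded and ribosomal protein UMIs in the total. Ribosomal protein RNA made up 5.09% of UMIs in neurons and 17.2% in neuroblasts on average. Of 84 genes tested, 66 (78.6%) rose and 4 fell, against 29.7% of all 9349 genes that rose and 26.3% that fell, with a median log2 fold change of 0.58 against 0.02 for all genes. By complex, 28 of 34 complex I subunits, 6 of 8 complex III, 12 of 14 complex IV and 16 of 17 ATP synthase subunits rose. *atp5f1b*, the catalytic beta subunit of ATP synthase, rose by 1.43 (SE 0.12, adjusted p = 1.17e-16), and *atp5if1b* stood at 421, 434 and 481 CPM against 130, 100.2 and 117 in neuroblasts (log2 fold change 1.88, SE 0.13, adjusted p = 8.31e-20). The 4 genes that fell were *cox4i2* (-2.62), the assembly factors *ndufaf2* (-1.11) and *ndufaf1* (-0.58), and *atp5if1a* (-0.44, adjusted p = 0.000688).

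Neurons and radial glia differed in which genes were high more than in the total. The log2 ratio of the share was 0.14 ± 0.03, with 3 of 3 replicates higher in neurons. It was 0.01 with cells thinned to 500 UMIs, 0.27 at 2000 UMIs and 0.07 without mitochondrially encoded and ribosomal protein UMIs in the total. Of 86 genes tested, 20 (23.3%) rose and 15 (17.4%) fell, against 33.3% of all 10699 genes that rose and 33.1% that fell, so fewer of these genes than of all genes were called in either direction. The median log2 fold change was 0.01, beside 0.03 for all genes. With library sizes in place of TMM scaling, the median of all genes was 0.19, and the split was 29 higher and 11 lower. Over all genes that setting gave 4150 higher and 3091 lower of 10699. The assembly factor *ndufaf2*, at 31.4 to 36.7 CPM in neurons and 46.0 to 58.1 in radial glia (-0.73, adjusted p = 7.71e-05), *ndufb9* (-0.69, adjusted p = 2.07e-06) and *ndufv1* (-0.58, adjusted p = 0.000349) were lower in neurons, whereas *atp5f1b* was higher, at 1226, 1600 and 1494 against 676, 730.1 and 704 (log2 fold change 0.87, SE 0.11, adjusted p = 3.50e-08).

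**Figure D3:**
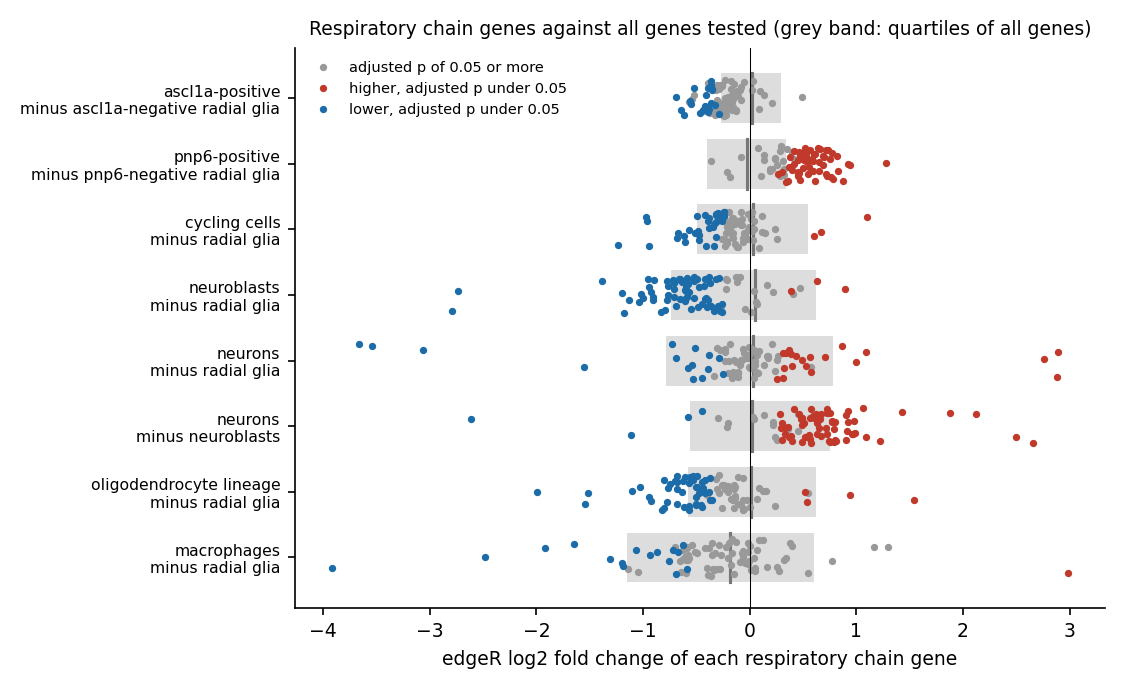
Log2 fold changes (edgeR) of the tested respiratory chain genes, 1 point per gene, in the comparisons of the report, beside a grey band for the quartiles of all genes tested. The median of these genes is 0.48 between pnp6-positive and pnp6-negative radial glia, -0.52 between neuroblasts and radial glia, and 0.01 between neurons and radial glia.

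The largest differences between neurons and radial glia lay in alternative isoforms of complex IV. *cox4i2*, whose mammalian ortholog is the isoform induced by low oxygen, was at 430, 545 and 502 CPM in radial glia and at 31.6, 44.1 and 57.9 in neurons (log2 fold change -3.66, SE 0.13, adjusted p = 2.08e-22). It made up 59.9% ± 3.97 of the UMIs of *cox4i1* and *cox4i2* in radial glia, 44.5% ± 4.87 in cycling cells, 45.8% ± 5.04 in neuroblasts and 7.49% ± 1.44 in neurons. Cycling cells and neuroblasts did not differ beyond their spread, and both lay below every replicate of radial glia. The level of *cox4i2* in neurons was 7.36 to 11.5% of that in radial glia, while the radial glia marker list, which the rule for neurons caps, stood at 2.56 to 2.98% of its level in radial glia. *cox4i2* rose by 0.76 in *pnp6*-positive against *pnp6*-negative radial glia (SE 0.09, adjusted p = 6.29e-12), where it reached 65.5% ± 4.01 of the pair. *cox7a1*, whose mammalian ortholog is the heart and muscle isoform of its subunit, was low but followed a similar order. It was at 44.6, 38.9 and 34.6 CPM in radial glia, 16.5 to 24.9 in cycling cells, 4.8 to 6.77 in neuroblasts and 2.83 to 7.73 in neurons. The log2 fold change of neurons to radial glia was -3.06 (SE 0.23). *cox7a1* stayed in that test through its counts in radial glia, so no p-value is given.

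*cox6b1*, *cox8b* and *ndufa4* behaved in the opposite way. *cox6b1* and *cox8b* encode alternative isoforms of complex IV subunits, and *ndufa4*, named as a complex I gene, encodes a protein that in mammals belongs to complex IV. *ndufa4* was at 248, 266 and 233 CPM in neurons and at 45.3, 20.2 and 24.9 in radial glia (log2 fold change 2.89, SE 0.16, adjusted p = 2.20e-17). *cox8b* was at 224, 199.7 and 217 against 37.3, 17.3 and 23.5 (log2 fold change 2.88, SE 0.16, adjusted p = 8.83e-18), and *cox6b1* at 112, 117 and 134 against 15.3, 18.7 and 13.8 (log2 fold change 2.76, SE 0.17, adjusted p = 2.95e-16). Neurons were above radial glia and above neuroblasts in all replicates, with log2 fold changes to neuroblasts of 2.50, 2.66 and 2.12 for *ndufa4*, *cox8b* and *cox6b1*. The levels of the 3 genes in radial glia were 7.59 to 18.3% of those in neurons. The neuron marker list stood at 8.90 to 11.05%, but the rule for radial glia caps it at 3 UMIs per 1000, so it does not measure background. How much of their reads in radial glia is background was not tested, and the fold changes compare neurons with a level that may be background. Their paralogs showed smaller differences, with *ndufa4l* lower in neurons (-0.53), *cox8a* at 0.02 and *cox6b2* at -0.23 without a call. In neurons *ndufa4* made up 26.1% ± 1.30 of the UMIs of *ndufa4* and *ndufa4l*, *cox8b* 32.4% ± 1.5 of *cox8a* and *cox8b*, and *cox6b1* 19.4% ± 1.54 of *cox6b1* and *cox6b2*. *cox7a2a*, the more widely expressed partner of *cox7a1*, was also higher in neurons, at 491, 532 and 555 against 214, 217 and 235 CPM (log2 fold change 1.09, SE 0.11, adjusted p = 1.98e-10).

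**Figure D4:**
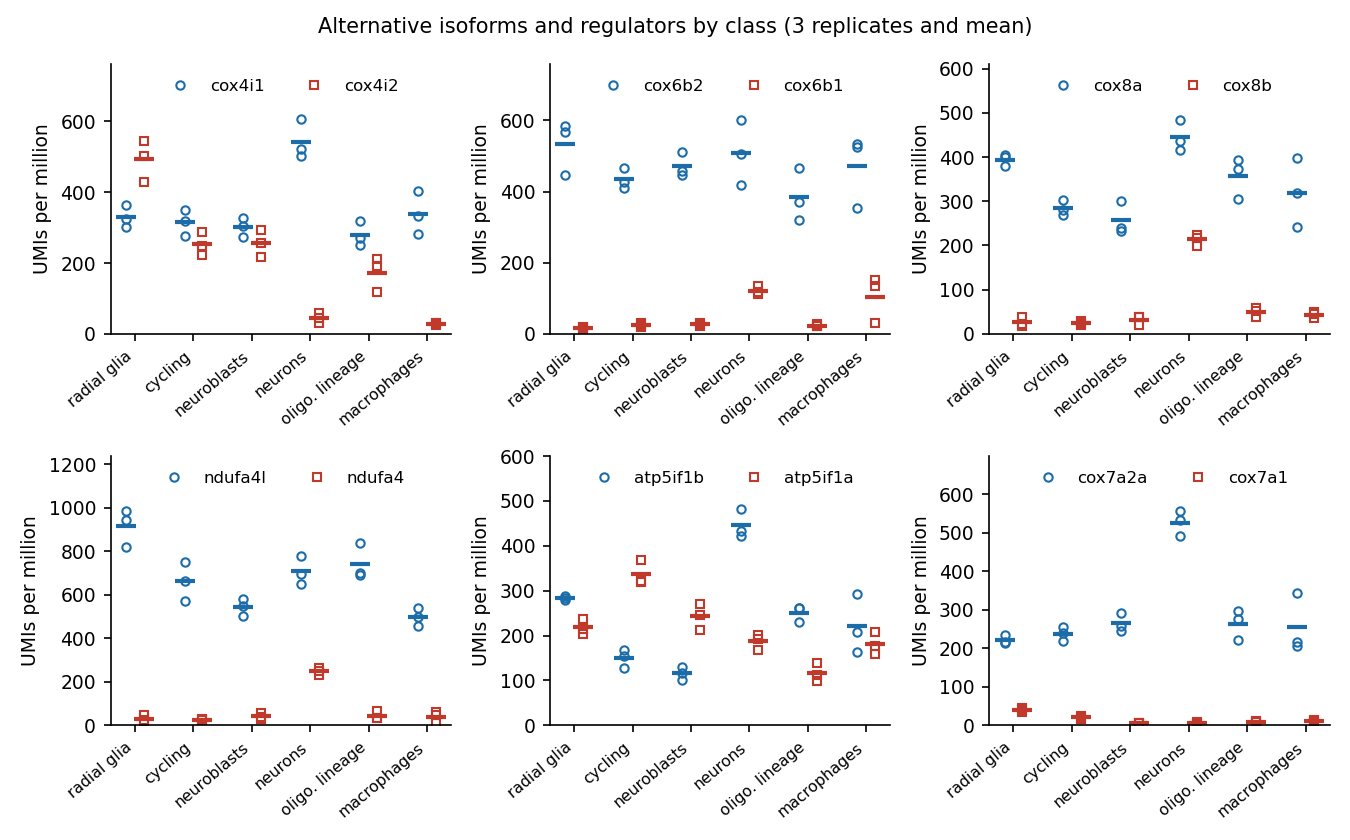
Levels in CPM (vertical axes) of 6 pairs of isoforms or paralogs in 6 classes (horizontal axes), with 3 replicates as symbols and the mean as a bar. cox4i2 is highest in radial glia, at 430 to 545, and lies between 31.6 and 57.9 in neurons, where cox6b1, cox8b and ndufa4 rise.

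The balance of the ATP synthase inhibitory factors also differed between classes. *atp5if1a* made up 43.6% ± 1.87 of their summed UMIs in radial glia, 69.3% ± 1.89 in cycling cells, 67.7% ± 4.90 in neuroblasts and 29.6% ± 1.03 in neurons. Cycling cells and neuroblasts overlapped, and each of the other classes lay apart from them in all 3 replicates. In the oligodendrocyte lineage the share was 31.6% ± 2.67. The alternative c subunit genes of ATP synthase differed from each other too: in neurons against radial glia *atp5mc1* rose by 0.53, *atp5mc3a* fell by 0.51, and *atp5mc3b* (-0.23) was not called. *ndufaf6*, the assembly factor of complex I that rose with *pnp6*, was highest in radial glia, at 36.0, 37.5 and 40.1 CPM, with 10.3 to 21.4 in cycling cells, 3.2 to 7.65 in neuroblasts, 10.9 to 17.9 in neurons and 11.2 to 16.0 in the oligodendrocyte lineage. It fell by 1.24, 2.73, 1.55 and 1.52 on the log2 scale in these 4 classes (adjusted p between 1.70e-11 and 1.03e-05), without overlap with radial glia. The neuroblast test kept *ndufaf6* through its counts in radial glia, so that p-value is no support. Of the UMIs of *cox5aa* and *cox5ab*, *cox5ab* gave 42.7 to 46.6% on average in radial glia, cycling cells, neuroblasts, neurons and the oligodendrocyte lineage, and 30.0, 32.0 and 17.2% in the 3 replicates of macrophages, where neither gene was called against radial glia.

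The oligodendrocyte lineage (1248 cells) had less respiratory chain RNA than radial glia, with a log2 ratio of the share of -0.46 ± 0.09 and 3 of 3 replicates lower. Of 86 genes tested, 46 (53.5%) fell and 4 rose, against 25.4% of all 9384 genes that fell and 26.5% that rose, and the median log2 fold change was -0.39 against 0.01 for all genes. ATP synthase was the complex with the largest part of its genes lower, at 13 of 17 subunits, against 15 of 34 in complex I. Oligodendrocyte precursors (854 cells) had shares of 1.14, 1.39 and 1.52%, and oligodendrocytes (394 cells) 1.57, 1.48 and 1.80%, higher than precursors of the same library in 3 of 3. The log2 ratio was 0.26 ± 0.19 and only 0.09 in replicate 2. Precursors held fewer UMIs per cell before thinning, with medians of 1422.5, 2040.5 and 1847.5 against 2566, 2929.5 and 3379, whose part in the result was not tested. Without the pairing of sums from the same library 29 genes were called, and with DESeq2 31. Over all 9384 genes, 1970 rose and 1860 fell without the pairing, and 1643 rose and 1578 fell with DESeq2.

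*ndufab1a*, the mitochondrial acyl carrier protein that is also a subunit of complex I, was at 56.9, 85.1 and 81.2 CPM in the lineage and 137, 176 and 161 in radial glia (log2 fold change -1.10, SE 0.15, adjusted p = 3.80e-07). *atp5md*, a small membrane subunit of ATP synthase, was at 103, 105 and 135 against 191, 239 and 230.2 (log2 fold change -0.95, SE 0.14, adjusted p = 2.62e-06). *cox4i2* (-1.55, adjusted p = 5.02e-10) and *ndufaf2* (-1.03, adjusted p = 9.32e-05) fell as well. The 4 genes that rose were *cox5b2*, *cox8b* (0.94), *ndufa4* (0.54) and *uqcrc1*, a core protein of complex III at 159, 182 and 215 against 111, 145 and 130.0 (log2 fold change 0.52, SE 0.14, adjusted p = 0.00242). The neuron marker list stood at 19.1 to 21.4% of its neuron level in the lineage against 8.90 to 11.05% in radial glia. The 2 values are not on equal terms, since the class rules allow under 6 neuron UMIs per 1000 in the lineage and at most 3 in radial glia. *cox8b* was at 17.6 to 26.5% and *ndufa4* at 12.6 to 25.7% of their neuron levels in the lineage. The part of neuronal RNA in their rise was not tested. *cox4i2* was unevenly spread within the lineage, at 64.2, 130.0 and 141 in precursors and 225, 260.0 and 284 in oligodendrocytes. The rule for the lineage does not cap the radial glia marker list. That list stood at 9.20, 6.56 and 7.37 UMIs per 1000 in precursors and 2.05, 1.62 and 2.31 in oligodendrocytes, against 37.5, 35.6 and 36.4 in radial glia. Its part in the *cox4i2* levels was not tested.

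*cox5b2*, one of the zebrafish genes of complex IV subunit 5B, was highest in oligodendrocytes. It was at 81.2, 115 and 65.9 CPM in oligodendrocytes, 16.0, 6.49 and 15.2 in radial glia, and 0, 2.17 and 0 in oligodendrocyte precursors. No other class reached 6 CPM in any replicate. The radial glia level was 5.63 to 23.1% of that in oligodendrocytes. The oligodendrocyte marker list, which the rule for radial glia caps, stood at 0.314 to 0.471% of its oligodendrocyte level there. All 6 classes together gave 187 UMIs of *cox5b2*. For the whole lineage against radial glia the log2 fold change was 1.54 (SE 0.30, adjusted p = 0.000106). Neurons, at 0.910, 1.99 and 0.471 CPM, were below radial glia in each library (log2 fold change -3.54, SE 0.45). The gene stayed in that test through its counts in radial glia, so no p-value is given.

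Macrophages were few, with 39, 108 and 42 cells in the 3 replicates, and the values of single genes rest on few UMIs. The summed share was below radial glia in 3 of 3 replicates, with a log2 ratio of -0.47 ± 0.08, and the difference was larger for complex I (-0.75 ± 0.16) than for complex IV (-0.30 ± 0.09). Of 85 genes tested, 16 (18.8%) fell and 1 rose, against 19.6% of all 7506 genes that fell and 16.8% that rose, so the number that fell was near that of all genes. The median log2 fold change was -0.33, beside -0.18 for all genes. With library sizes in place of TMM scaling, 34 fell and the median of all genes was -0.40. Leaving out replicate 1, 2 or 3 gave 9, 10 and 6 called genes, DESeq2 5, thinned UMIs 8 and no filter on low counts 30. Over all genes, 1791 of 7506 fell with library sizes and 852 of 7506 with DESeq2. Without replicate 1, 2 or 3 it was 1179 of 7478, 806 of 7525 and 1146 of 7932. It was 863 of 4292 on thinned UMIs and 1763 of 19851 without the filter.

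*cox4i2* was at 29.5, 30.3 and 24.5 CPM in macrophages against 430, 545 and 502 in radial glia (log2 fold change -3.92, SE 0.36, adjusted p = 1.28e-25). The level in macrophages was 4.87 to 6.88% of that in radial glia, and the radial glia marker list, which the rule for macrophages caps, stood at 1.23 to 2.03%. *ndufb9* fell by 1.31 (SE 0.24, adjusted p = 3.64e-07) without overlap. The calls of *ndufaf2* (-1.65, adjusted p = 0.0229) and *ndufv1* (-1.20, adjusted p = 0.0255) were lost without 1 library, that of *ndufaf2* without any of the 3 and that of *ndufv1* without replicate 2 or 3. *cox6b1*, described above in neurons, was the 1 gene that rose, at 29.5, 151 and 135 against 15.3, 18.7 and 13.8 (log2 fold change 2.98, SE 0.42, adjusted p = 8.45e-12). It was near the level of neurons in replicates 2 and 3 and at 26.4% of it in replicate 1. The neuron marker list in macrophages, which the rule for macrophages also caps, stood at 10.3 to 13.2% of its level in neurons.

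The mitochondrially encoded part of the chain moved with the nuclear part in some comparisons and not in others. The 13 mitochondrially encoded protein genes made up 1.67, 1.63 and 1.64% of UMIs in radial glia and 3.72, 2.86 and 3.56% in neurons, a log2 ratio of 1.03 against 0.14 for the nuclear-encoded genes. In the edgeR test 12 of 13 rose in neurons, among them *mt-nd3* (1.28) and *mt-co1* (1.03). In the oligodendrocyte lineage and in macrophages the mitochondrially encoded share was higher than in radial glia (log2 ratio 0.46 in each) while the nuclear-encoded share was lower. *pnp6*-positive radial glia differed from *pnp6*-negative ones by 0.03, with 1 of 11 tested mitochondrially encoded genes called, *mt-atp6* (0.18). In cycling cells both parts were lower, with 11 of 12 mitochondrially encoded genes that fell. In neuroblasts 6 of 12 fell and none rose, in neurons against neuroblasts 11 of 13 rose, and in the *ascl1a* comparison none of 11 was called. Of all genes tested, 33.3% rose in neurons against radial glia, 29.7% from neuroblasts to neurons and 11.1% with *pnp6*. Of all genes, 25.4% fell in cycling cells and 29.4% in neuroblasts. The 1 of 11 called with *pnp6* was thus near the share of all genes. Cells with over 10% mitochondrially encoded UMIs had been left out.

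**Figure D5:**
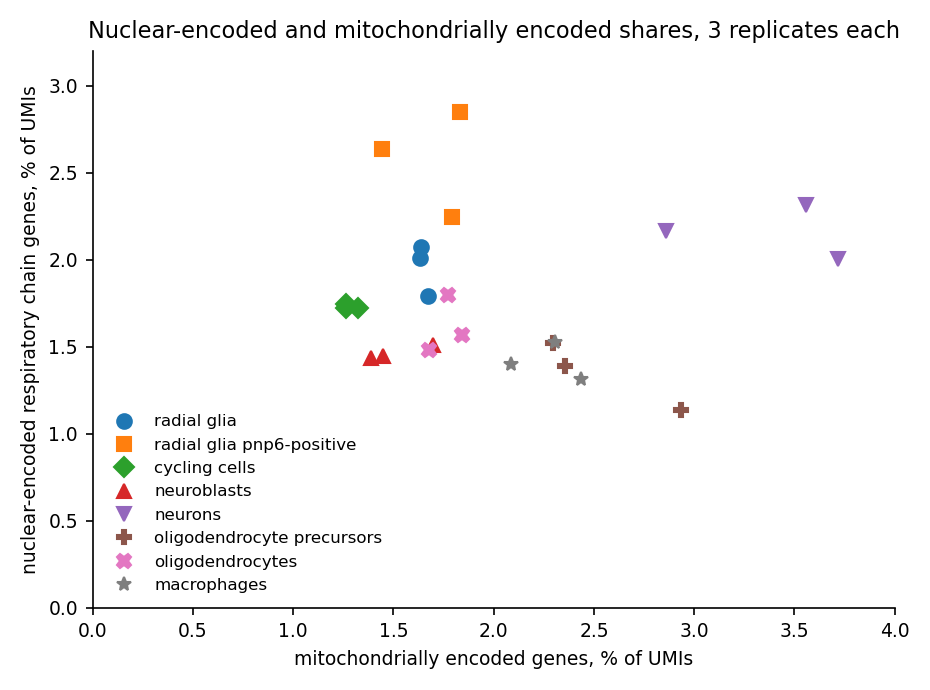
Percent of UMIs from the 93 nuclear-encoded respiratory chain genes (vertical axis) against the percent from mitochondrially encoded genes (horizontal axis), with 3 replicates per class. Neurons lie far to the right, at 2.86 to 3.72% mitochondrially encoded UMIs, while their nuclear-encoded shares of 2.01 to 2.31% overlap those of radial glia.

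Genes that feed the chain moved with it in part. Complex II (succinate dehydrogenase), cytochrome c and *cyc1*, the cytochrome c1 subunit of complex III, are respiratory genes outside the symbol rule. All 7 tested rose from neuroblasts to neurons, with *sdha* at 1.29 and *sdhb* at 1.11, 5 of 7 rose from radial glia to neurons, and 2 of 6, *sdhb* (0.54) and *sdhc* (0.51), rose with *pnp6*. Of 18 citrate cycle genes, 13 rose from neuroblasts to neurons, 11 fell from radial glia to neuroblasts, among them *idh3a* (-1.17) and *idh3g* (-1.11), 6 rose with *pnp6* and 3 fell with *ascl1a*. The genes that assemble cytochrome oxidase moved less in 1 direction, with 4 higher and 2 lower of 16 in cycling cells, 3 and 3 in neuroblasts, 3 and 3 in neurons against radial glia, 1 and 3 in the oligodendrocyte lineage, and none called of 12 with *pnp6* or of 13 with *ascl1a*. Of all genes tested, 29.7% rose from neuroblasts to neurons, 33.3% rose from radial glia to neurons, 29.4% fell from radial glia to neuroblasts, 11.1% rose with *pnp6* and 8.86% fell with *ascl1a*. The counts for cytochrome oxidase assembly were at or below the shares of all genes in each direction. In macrophages *cox17*, a copper chaperone of complex IV, rose by 1.71 and *cycsb* (cytochrome c) by 1.36.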

How the data were processed

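The 3 single-cell 3' libraries of the telencephalon of treated fish were analysed. The authors made the deposited counts, whole UMIs per gene and barcode, with Cell Ranger 3.0.1 on GRCz11, and replicates were not pooled.

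Barcodes with under 200 genes, over 10% mitochondrial UMIs, or a loess residual of genes on UMIs (span 0.5) beyond 3 SD were removed. Scrublet's own threshold marked almost no cells, so the highest scores were removed at 0.8% per 1000 cells (975 cells). Cells were thinned to 1000 UMIs, and 1481, 1314 and 1234 cells with fewer were left out. Per 1000 UMIs, classes asked for at least 10 radial glia, 4 S-phase or 3 G2/M, 4 neuroblast, 6 neuron, 4 oligodendrocyte precursor or 8 oligodendrocyte, and 5 macrophage UMIs, with upper limits on other lists. Neuron UMIs were at most 3 in radial glia, cycling cells and neuroblasts, and under 6 in the oligodendrocyte lineage and macrophages. Radial glia UMIs were limited in neuroblasts, neurons and macrophages, but not in cycling cells or the oligodendrocyte lineage. Unthinned counts were summed per class and library and tested with edgeR 4.0.16 (TMM, filterByExpr, quasi-likelihood F test, replicate as block, Benjamini-Hochberg over all genes tested, threshold 0.05), each comparison on its own. The procedure was also run on counts simulated from the *pnp6* comparison only. Those counts held no gene differences between libraries, so the block was not tested on them. Cells are not replicates. Both sums of a pair come from the same library, and deviations of same-numbered sums correlated at 0.0597 to 0.578.

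The genes and lists were chosen with earlier results of these data known. Named genes were, per comparison, up to 4 called genes with the largest rise and 4 with the largest fall, at 50 CPM or more in 1 class and with 1 direction in all replicates, plus alternative isoforms and regulators. *atp5f1b*, *ndufaf1*, *ndufaf4*, *ndufaf6* outside the *pnp6* comparison, *ndufs1*, *ndufaf7* and genes of other pathways were named after their values were seen. Alternatives were DESeq2 1.42.0, no TMM, no filter, no block, thinned counts, stricter markers, doublets kept, 20% mitochondrial UMIs, other depths and totals, and leaving out each replicate. A statistic over the 93 genes together was given no p-value. No columns were left unmapped, and the files held no comparisons of the authors.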

Additional observations from a re-analysis of the deposited data

How the results depend on the processing

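None of the 88 recomputed mean log2 ratios of the share changed sign, and 71 moved by less than 1 SD. For *pnp6* the ratio was 0.35 at 2000 UMIs, and 0.38 both for cells of 1500 to 3000 UMIs and without mitochondrially encoded and ribosomal UMIs in the total. That last total gave -0.20 for *ascl1a*, 0.065 for neurons and 0.39 for neurons against neuroblasts. It gave -0.036 for cycling cells, -0.57 for the oligodendrocyte lineage and -0.37 for macrophages. Thinning to 500 UMIs gave 0.014 for neurons and 0.41 against neuroblasts, thinning to 2000 gave -0.57 for neuroblasts, 0.27 for neurons and 0.84 for neurons against neuroblasts, and no thinning gave -0.51 for neuroblasts and 0.67 for neurons against neuroblasts. Cells of 1500 to 3000 UMIs gave 0.20 for neurons and -0.38 for macrophages. Leaving out 1 replicate gave -0.35 to -0.22 for *ascl1a*, 0.43 to 0.51 for *pnp6*, -0.25 to -0.13 for cycling cells, -0.47 to -0.38 for neuroblasts, 0.13 to 0.16 for neurons, 0.53 to 0.60 for neurons against neuroblasts, and -0.51 to -0.42 for both the oligodendrocyte lineage and macrophages.

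Counts of called genes moved more. Without the replicate block, which pairs sums of the same library, they were 0 for *ascl1a*, 11 for *pnp6*, 18 for cycling cells and 29 for the oligodendrocyte lineage, and 46 for neuroblasts, 24 for neurons, 56 for neurons against neuroblasts and 12 for macrophages. Calls over all genes dropped as well without the block, to 20 higher and 71 lower of 7056 for *ascl1a*, from 521 and 625. For *pnp6* they dropped to 232 higher and 175 lower of 6696, from 746 and 555. For neuroblasts they were 1846 and 2070 of 8445 without the block, and for neurons 2902 and 2972 of 10699. For neurons against neuroblasts they were 2241 and 1887 of 9349, and for macrophages 1198 and 1381 of 7506. DESeq2 called 5 respiratory chain genes for *ascl1a*, 31 for the oligodendrocyte lineage and 5 for macrophages. No filter on low counts gave 13 for *ascl1a*, 38 for *pnp6* and 30 for macrophages, thinned UMIs 11, 31 and 8 in the same order, stricter markers 23 for *pnp6*, and library sizes without TMM 35 for macrophages. Leaving out 1 replicate gave 6 to 16 for *ascl1a*, 36 to 49 for *pnp6*, 25 to 56 for cycling cells, 60 to 69 for neuroblasts, 28 to 35 for neurons, 59 to 68 for neurons against neuroblasts, 35 to 49 for the oligodendrocyte lineage and 6 to 10 for macrophages. Over all genes, 1930 to 2167 then rose and 2219 to 2465 fell in neuroblasts, of 8583 to 8726. In neurons 3337 to 3390 rose and 3326 to 3370 fell, of 10838 to 11569. For neurons against neuroblasts it was 2359 to 2554 and 2066 to 2212 of 9463 to 10471. For the oligodendrocyte lineage it was 2202 to 2358 and 2125 to 2275 of 9119 to 9753. Fold changes were recomputed for 109 pairs of a gene and a comparison, each called in the edgeR test. Genes named after their values were seen, and pairs without a call, are not among them. Of 980 values, 830 kept direction and call, 150 kept direction only and 0 reversed. The pairs were chosen for being called on the same data, so the lack of reversals is no independent evidence. The thinned setting uses the same cells with fewer UMIs, leave-one-out settings use fewer libraries, and stricter markers change which cells enter. The part of this in the shifts was not tested. Depth limits genes such as *ndufs1*, with 1 UMI in all.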

Other observations

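Other energy pathways also differed between these classes. Glycolysis genes were low in neuroblasts, where 17 of 20 tested fell against radial glia with a median log2 fold change of -1.45, and in cycling cells, where 18 of 21 fell and 1 rose with a median of -0.95. The enolase *eno1b* (-5.68), the aldolase *aldocb* (-2.93) and the triosephosphate isomerase *tpi1a* (-2.96) were among those that fell in neuroblasts. From radial glia to neurons 12 of 23 rose and 7 fell, with *eno1b* (-5.15) and *tpi1a* (-2.53) lower while *eno1a* (1.62), *pfkpa* (3.16) and *eno2* (3.29), which is also one of the neuron markers, were higher, so that paralogs of one enzyme went opposite ways. From neuroblasts to neurons 18 of 21 rose. Within radial glia 12 of 20 rose with *pnp6*, 10 of 20 fell with *ascl1a*, and none moved the other way in the edgeR test. In the oligodendrocyte lineage 12 of 22 fell and 4 rose, and in macrophages 7 of 20 fell and 2 rose. Of all genes tested, 29.4% fell in neuroblasts, 25.4% in cycling cells, 33.1% in neurons, 25.4% in the oligodendrocyte lineage, 19.6% in macrophages and 8.86% with *ascl1a*, while 33.3% rose in neurons, 29.7% from neuroblasts to neurons, 26.5% in the oligodendrocyte lineage, 16.8% in macrophages and 11.1% with *pnp6*. The 7 glycolysis genes that fell in neurons, the 4 that rose in the oligodendrocyte lineage and the 2 that rose in macrophages were thus below the shares of all genes.

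Most fatty acid oxidation genes were higher in radial glia than in the other classes. Of 12 tested, 11 fell in neuroblasts (median log2 fold change -1.54) and 11 in cycling cells, 10 fell and 1 rose in neurons (median -1.87) and in the oligodendrocyte lineage, and 8 fell in macrophages. *acadl*, a long-chain acyl-CoA dehydrogenase, changed by -2.62 in neuroblasts and *acaa2*, the thiolase of the pathway, by -2.65 in neurons. In radial glia 10 of 12 rose with *pnp6* and 7 of 12 fell with *ascl1a*. *cpt1aa*, a carnitine palmitoyltransferase that starts the import of fatty acids, was the gene that rose in neurons (0.58). From neuroblasts to neurons 4 of 11 rose and 1 fell, beside 29.7% of all genes that rose and 26.3% that fell. Of all genes, 29.4% fell in neuroblasts, 33.1% in neurons, 19.6% in macrophages and 8.86% with *ascl1a*, and 11.1% rose with *pnp6*. In cycling cells, where 28% of all genes rose and 25.4% fell, 27 of 73 mitochondrial ribosomal protein genes rose and 1 fell, and the genes that rose included the mitochondrial transcription factor *tfam* (1.21), the DNA polymerase *polg* and the regulator *nrf1* (1.19), from a list of biogenesis and import genes of which 6 of 16 rose and 3 fell. In the oligodendrocyte lineage 17 of 73 mitochondrial ribosomal protein genes fell and none rose, against 25.4% of all genes that fell and 26.5% that rose. Cytosolic ribosomal protein genes moved opposite to the respiratory chain in radial glia, with 79 of 83 lower with *pnp6* and 78 of 83 higher with *ascl1a*. Of all genes tested, 8.29% were lower with *pnp6* and 7.38% higher with *ascl1a*.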
